A study of Mus musculus with 7 samples.

Results

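Of 93611 regions at which RelA and RelB binding was read in mouse dendritic cells, 6698 (7.16%) lay in gene deserts. These were the regions that the deposited annotation placed between genes and more than 100 kb from the nearest transcription start site (TSS), 18.2% of all regions between genes. The choice among the 93611 regions used position alone and no binding value. How those 93611 regions were selected is not given in the sources used here, so binding may have entered there. The cells were BMDCs, which are dendritic cells (professional antigen presenters) derived in culture from C57BL/6 mouse marrow in the presence of the growth factors GM-CSF (20 ng/ml) and IL-4 (10 ng/ml). Chromatin immunoprecipitation (ChIP-seq) was done with an antibody to RelB in wild-type (WT) cells at 0 h without treatment and at 1 h of 10 ng/mL bacterial lipopolysaccharide (LPS), and in RelB knockout (RelBko) cells in the same pair of conditions. An antibody to RelA was used in WT and in RelBko cells after 1 h of LPS, and the remaining library was WT input DNA without an antibody, with no time or treatment in its label. One reagent given in the treatment protocol carries the name of a CpG oligonucleotide, and LPS is written here as in the sample labels. Each of the 7 groups held 1 library, so no difference below has a replicate check and no p-value is given.

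NF-kB transcription factors are dimers of subunits that include RelA and RelB. RelA enters the nucleus soon after inflammatory signals reach the cell, and RelB acts mainly in the noncanonical pathway and is abundant in dendritic cells. NF-kB binds promoters and also distal enhancers, which can act on genes far away along the chromosome. The nearest TSS is therefore a label of position for the regions described here, and which gene a region acts on was not measured. Values are RPKM, the reads in a region scaled by its length and by the library total. RelA and RelB were read with different antibodies, so a ratio between them compares signals and not amounts of the factors.

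The library totals behind the RPKM ran from 13188833 reads (input) to 35064429 (WT RelB at 0 h). Gene desert regions took 2.30% and 2.45% of the reads of the WT RelB libraries at 0 h and 1 h, 1.90% of WT RelA, 1.81% of RelBko RelA, 0.378% and 0.265% of the RelBko RelB libraries at 0 h and 1 h, and 0.207% of the input. A median gene desert region held 53, 48 and 25 reads in WT RelB at 0 h, WT RelB at 1 h and WT RelA, but 4 reads in the input and 7 and 6 in the RelBko RelB libraries, so weak regions of those 3 libraries are counted with little precision. Intervals below are 95% intervals (Wilson for shares, exact Clopper-Pearson for ratios of reads), and they cover counting error only.

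Gene desert regions were weaker than the other 86913 regions in every library, the input included. The median was 4.04 RPKM for WT RelB at 0 h, against 5.58 RPKM in all other regions. At 1 h it was 4.41 against 6.45 RPKM for RelB and 3.76 against 6.07 RPKM for RelA. In RelBko cells RelA had a median of 3.31 against 5.66 RPKM, while RelB had 1.11 against 1.52 RPKM at 0 h and 0.892 against 1.07 RPKM at 1 h. The input medians were 0.740 and 0.925 RPKM. The gap to the other regions was thus wider for RelA in both genotypes than for RelB in WT cells.

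**Figure D1:**
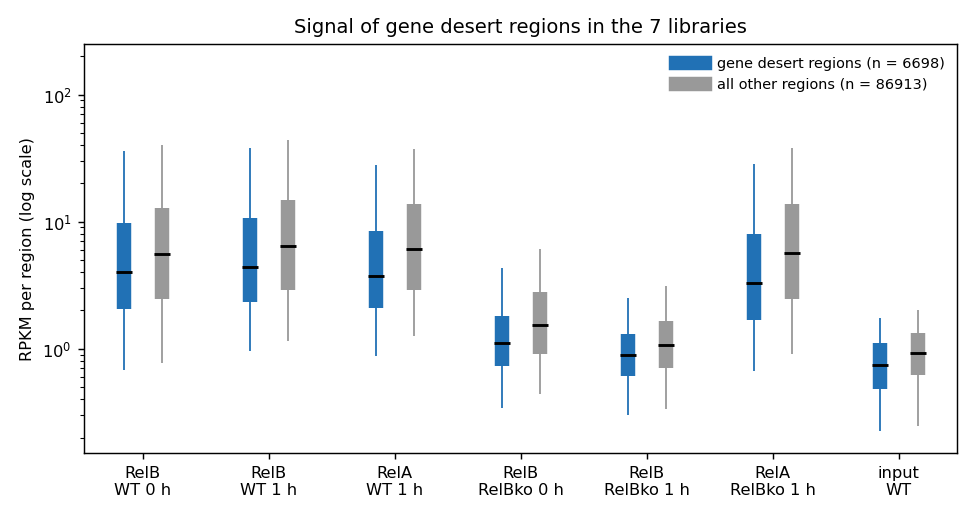
RPKM per region (log axis) in the 7 libraries, for gene desert regions in blue and all other regions in grey; thick bars span the 25th to the 75th percentile of regions, thin lines the 5th to the 95th percentile, black ticks the median. The blue medians lie under the grey ones in each library, at 4.41 against 6.45 RPKM for WT RelB at 1 h and at 3.76 against 6.07 RPKM for WT RelA.

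A region counted as enriched when it had at least 2 RPKM and at least 2 times the input signal, with 0.5 RPKM added to both. By this rule 4834 gene desert regions (72.2%) were enriched for RelB in WT cells at 0 h, against 75.9 percent of all regions. At 1 h the count was 5152 (76.9%) for RelB, against 81.7 percent of all regions. For RelA in WT cells it was 4830 (72.1%), against 82.0 percent of all regions. In RelBko cells 4276 (63.8%) were enriched for RelA, against 75.9 percent. The RelB antibody in RelBko cells marked 973 (14.5%) at 0 h and 311 (4.64%) at 1 h, against 24.1 and 6.36 percent of all regions. All 3 WT ChIP libraries were enriched at 3722 gene desert regions (55.6%), against 66.5% of all other regions. No ChIP library was enriched at 366 (5.46%), against 3.75% of all other regions. RelB at either time without RelA was found at 1323 gene desert regions (19.8%), against 11.3% of all other regions. RelA without RelB was found at 7.41% of gene desert regions and of all other regions. The share for RelB without RelA was 14.9% in introns beyond 10 kb of a TSS and 2.45% in promoters. In regions between genes within 100 kb of a TSS it was 12.3%. RelA was not read at 0 h, so RelB could pass in either of 2 libraries and RelA in 1 only, which favours RelB without RelA. At 1 h alone, 5782 gene desert regions were enriched for RelB or RelA in WT cells. Among them 952 were enriched for RelB only and 630 for RelA only. In all other regions these counts were 7321 and 7934 of 79232. The WT RelA library had fewer reads than either WT RelB library. The part of depth in the share for RelB without RelA was not tested.

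Strong binding did occur far from genes. A mean over the 3 WT ChIP libraries of 20 RPKM or more was reached by 748 gene desert regions (11.2%), against 16.1% of the other regions. The mean was 50 RPKM or more at 129 gene desert regions (1.93%), against 2.95% of the other regions. Both shares were thus lower in gene deserts.

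The strongest lay 123038 bp upstream of Itga4, which encodes the alpha 4 integrin chain used in leukocyte adhesion and homing, at chr2:78972377-78972714 in mm9. There RelB in WT cells reached 211 RPKM at 0 h and 182 at 1 h, RelA reached 118 in WT and 127 in RelBko, the RelBko RelB libraries gave 14.0 and 5.16, and the input 1.57. RelB at 1 h was 35.2-fold higher in WT than in RelBko (25.1 to 51.0). RelA differed little between genotypes at this site (ratio of RelBko to WT 1.08, 0.981 to 1.19).

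The next strongest lay 199588 bp upstream of Marcks, an actin-binding substrate of protein kinase C, at chr10:37058035-37058605. RelB reached 162 and 168 RPKM in WT cells at 0 h and 1 h, RelA 148 in WT and 145 in RelBko, the RelBko RelB libraries 13.7 and 7.01, and the input 1.73. Both factors were thus high at this site, and RelA was 0.884 times RelB at 1 h (0.830 to 0.942).

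RelA was lower relative to RelB than at Marcks at most of the other leading sites. The region 130810 bp downstream of the TSS of Fasl, the ligand of the death receptor Fas, had 168, 123 and 79.9 RPKM for RelB at 0 h, RelB at 1 h and RelA in WT cells, and 84.6 for RelA in RelBko. The region 141122 bp upstream of Pik3r1, a regulatory subunit of phosphoinositide 3-kinase, had 128, 127 and 73.1 RPKM in WT and 74.1 for RelA in RelBko. The region 155699 bp downstream of the TSS of Chd7, a chromatin remodeler, had 130, 120 and 63.4 RPKM in WT and 69.3 for RelA in RelBko. At these 3 sites the ratio of RelA to RelB was 0.649 (0.582 to 0.722), 0.574 (0.523 to 0.629) and 0.527 (0.471 to 0.589). It was 0.702 at the leading site beside Rplp1 and 0.816 at that beside Gm46545, both under the Marcks ratio, and 0.982 at that beside 4930459C07Rik. Input was 1.25 RPKM or less at the sites beside Fasl, Pik3r1 and Chd7.

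The share of regions enriched for RelA was lower the farther they lay from a TSS, while that for RelB at 0 h stayed between 68.4% and 73.3%. The 4121 regions at 100 to 200 kb, the 1311 at 200 to 300 kb, the 870 at 300 to 500 kb, the 351 at 500 to 1000 kb and the 45 beyond 1000 kb were compared by the share enriched. For RelA in WT cells this share was 75.9% (74.5 to 77.2), 71.0% (68.5 to 73.4), 63.7% (60.4 to 66.8), 57.0% (51.8 to 62.1) and 40.0% (27.0 to 54.5). For RelB in WT cells at 0 h it was 73.2%, 72.1%, 68.4%, 70.1% and 73.3%, the last with an interval of 59.0 to 84.0. RelB at 1 h had 78.5%, 76.9%, 73.7%, 68.1% and 66.7%. RelA in RelBko cells was lower with distance as in WT cells, from 67.3% at 100 to 200 kb to 37.8% beyond 1000 kb. The input also had lower medians with distance, from 0.776 RPKM in the nearest class to 0.625 RPKM in the farthest. Its part in the trend was not tested.

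**Figure D2:**
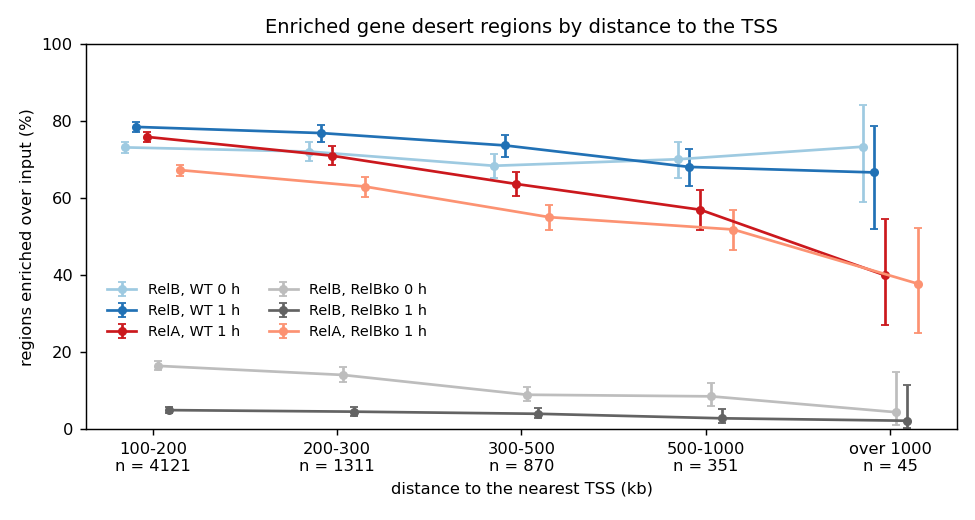
Share of gene desert regions enriched over input (y axis, percent) by distance to the nearest TSS (x axis, kb, number of regions under each class); points are libraries, bars are 95% Wilson intervals of counting error. RelA in WT cells goes from 75.9% to 40.0% across the classes, while RelB in WT cells at 0 h stays between 68.4% and 73.3%.

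The 3 regions farthest from any TSS were weak. Those assigned to Rag2, a recombinase gene of lymphocytes, lay 1831453 and 1953539 bp upstream and had 0.937 and 3.47 RPKM for WT RelB at 1 h. The region 2012635 bp downstream of the TSS of Olfm4 had 2.13 RPKM in that library and 3.27 at 0 h. At the threshold itself, the region 100018 bp upstream of Pgrmc2 had 77.3 RPKM for WT RelB at 1 h, and the region 99961 bp upstream of Mir680-3, just outside, had 39.8 RPKM.

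RelB signal at gene desert regions was lower in the RelBko libraries than in the WT libraries on the deposited scale. Regions enriched in at least 1 library of a pair were compared on log2(RPKM + 0.5), which makes differences of weak regions look smaller, and 2-fold or more was counted. At 1 h 4886 of 5175 compared regions (94.4%) were higher in WT than in RelBko, against 95.9 percent of all regions, and 21 (0.406%) were lower, against 0.128 percent. The median log2 difference was 2.34 on the deposited scale, and it became -0.13 when the median over all regions was set to 0, a shift of 2.47 that takes away the genotype difference by construction and leaves 918 higher and 877 lower. At 0 h 4379 of 4882 (89.7%) were higher in WT, against 86.0 percent of all regions, and 33 were lower (all regions: 0.504 percent). The median log2 difference at 0 h was 1.99, or 0.14 with the median over all regions set to 0, where 875 were higher and 328 lower. Most compared regions passed the enrichment rule through the WT library alone, which favours a higher value in WT. Over all 6698 gene desert regions without that rule, 80.1% at 1 h and 70.9% at 0 h were higher in WT on the deposited scale. These shares are not set against all regions here, so they do not tell gene deserts apart from the rest.

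The regions with the largest differences were strong in WT cells and had little signal in RelBko cells. Beside Gm15326 (chr13:112791343-112791667) WT RelB had 60.6 RPKM at 1 h and RelBko 0.947, a ratio of 64.0 (29.2 to 175). The region 151702 bp upstream of Chac2, a gamma-glutamylcyclotransferase gene, had 80.6 RPKM in WT and 1.38 in RelBko at 0 h, a ratio of 58.3 (31.6 to 122). Input there was 0.933 and 0.366 RPKM. Among the regions that went the other way were a neighbouring pair downstream of the TSS of Kcnh5, a potassium channel gene. The one at 372908 bp had 4.61 RPKM for WT RelB and 14.7 for RelBko RelB at 1 h, with 4.06 in the input, and the one at 373379 bp had 3.14, 13.1 and 3.16. Both are 168 bp long and among the shortest regions, and both had high input for this set. The highest input of all gene desert regions, 7.63 RPKM, was 284425 bp upstream of Pex2, where RelB gave 51.2 RPKM in WT and 32.8 in RelBko at 1 h. That region was the only gene desert region at 5 RPKM or more in input.

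RelB differed 2-fold or more between 0 h and 1 h of LPS at a minority of gene desert regions in WT cells. Of 5657 compared, 606 (10.7%) were higher at 1 h than at 0 h, against 11.0 percent of all regions, and 135 (2.39%) were lower, against 1.68 percent. The gained share was 11.5% at 100 to 200 kb and also at 200 to 300 kb, 7.96% at 300 to 500 kb and 6.34% at 500 to 1000 kb. The median log2 change was 0.07, a direction that flips to -0.07 with the median over all regions set to 0 (a shift of 0.14, giving 449 higher and 270 lower) and to -0.02 when scaled on regions without enrichment (489 higher and 219 lower). The split between gained and lost regions therefore moved with the scaling, from 81.8% gained to 62.4% and 69.1%.

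Single regions gained far more than the median. The region 153190 bp downstream of the TSS of Cdh26, a cadherin gene, went from 0.342 to 11.1 RPKM of RelB, a ratio of 32.3 (13.5 to 101), with RelA at 11.0 in WT and 9.21 in RelBko. The region 119920 bp downstream of the TSS of Qpct, which encodes glutaminyl cyclase, went from 0.548 to 9.64 RPKM, a ratio of 17.6 (8.63 to 41.7), with RelA at 6.70 and 9.53. Both were at or under the input level at 0 h, which was 0.727 and 0.547 RPKM, so the ratios rest on 5 and 8 reads at 0 h. The region 108110 bp downstream of the TSS of Gm17746 gained from a higher level, from 2.95 to 24.7 RPKM (ratio 8.35, 5.84 to 12.3).

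In RelBko cells the RelB antibody gave lower values at 1 h than at 0 h on the deposited scale. Of 1048 compared regions, 416 (39.7%) were lower at 1 h than at 0 h, against 44.1 percent of all regions, and 22 (2.10%) were higher, against 0.863 percent. The median log2 change was -0.86, or 0.07 with the median over all regions set to 0 (a shift of 0.93, where 98 were higher and 29 lower), and -0.99 when scaled on regions without enrichment. Of the 1048 regions, 737 passed the enrichment rule through the 0 h library alone and 75 through the 1 h library alone, so the choice of regions favours a lower value at 1 h. Over all 6698 gene desert regions without that rule, 834 (12.5%) were lower at 1 h, against 18.1 percent of all regions, 162 (2.42%) were higher, against 1.59 percent, and the median log2 change was -0.28. Over the 990 regions compared in both genotypes, the median went from 22.9 to 24.1 RPKM in WT cells and from 3.49 to 1.81 RPKM in RelBko cells.

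RelA at gene desert regions was close between the genotypes where signal was strong. Of 5212 compared regions, 79 (1.52%) were higher in RelBko, against 1.30 percent of all regions, and 365 (7.0%) were lower, against 4.94 percent. The median log2 difference was -0.12 on the deposited scale and -0.01 when scaled on regions without enrichment (a shift of 0.11, with 117 higher and 268 lower). With 1 RPKM added in place of 0.5, 46 of 4885 were higher and 203 lower. By the mean RPKM of both libraries, the share lower in RelBko was 11.5% under 5 RPKM, 3.78% at 5 to 10, 1.81% at 10 to 20 and 0 of 579 regions at 20 or more. In all other regions the shares were 10.3%, 3.16%, 1.04% and 0.171%. The regions counted as lower were thus mostly weak ones, inside and outside gene deserts.

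A few sites had little RelA signal in the RelBko library. The region 130924 bp upstream of 4922502H24Rik (chr13:102298291-102298628) had 12.6 RPKM of RelA in WT and 1.11 in RelBko, which is 11.3-fold lower (5.67 to 25.8), with RelB in WT at 30.5 and 47.9 RPKM at 0 h and 1 h and input at 0.897. The region 132591 bp upstream of Gm20740 (chr15:63443556-63443953) had 9.43 and 0.734 RPKM of RelA, 12.8-fold lower in RelBko (5.90 to 33.2), with RelB in WT at 15.8 and 23.2 and input at 0.953. At both, RelA in RelBko cells was near the input level while RelB in WT cells was far above it. The members with the largest gains in RelBko were weak, led by a region 130722 bp upstream of Ube2e1, a ubiquitin-conjugating enzyme gene, with 0.867 RPKM in WT and 4.20 in RelBko (ratio 4.85, 1.88 to 15.9).

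In WT cells at 1 h, RelB was 2-fold or more above RelA at a larger share of gene desert regions than of all regions. This was read on the deposited scale. Of 5782 compared regions, 671 (11.6%) had RelA 2-fold or more under RelB, against 7.21 percent of all regions, and 362 (6.26%) had RelA 2-fold or more above RelB, against 7.45 percent. The median log2 difference was -0.34 in gene deserts and -0.14 in all other regions, and in promoters it was 0.10. The other classes far from promoters lay in between. Introns beyond 10 kb of a TSS had -0.25, with RelA 2-fold or more under RelB at 8.85%. Regions between genes within 100 kb of a TSS had -0.21, with 7.84%. With the median over all regions set to 0 (a shift of 0.16), gene deserts stood at -0.19, with 461 regions on the RelA side and 433 on the RelB side, so which side held more regions depended on the scaling. Shares of all regions at that scaling are not given here, so the comparison of shares with all regions rests on the deposited scale. By mean RPKM of both libraries, the RelB side held 12.7%, 10.7%, 11.3% and 9.17% of gene desert regions (under 5, 5 to 10, 10 to 20, and 20 or more RPKM). In all other regions it held 8.88%, 6.34%, 5.07% and 5.73%. The RelA side held 0.410% of gene desert regions at 20 RPKM or more, 3 of 731, against 2.81% of the other regions. The difference between gene deserts and the other regions was present in each signal class on the deposited scale.

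**Figure D3:**
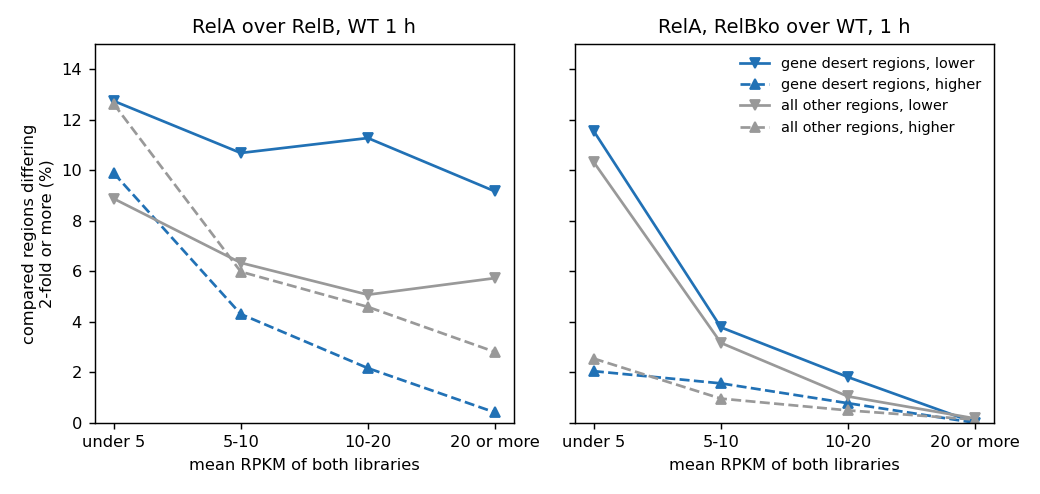
Share of compared regions differing 2-fold or more (y axis, percent) by the mean RPKM of both libraries (x axis), for gene desert regions in blue and all other regions in grey, lower as solid and higher as dashed lines; left, RelA over RelB in WT at 1 h, right, RelA in RelBko over WT. On the left the solid blue line lies above the solid grey one in all 4 classes (9.17% against 5.73% at 20 RPKM or more), and on the right the lower shares go from 11.5% to 0 in gene deserts.

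The regions that follow were among the largest differences on each side. The region 287502 bp upstream of Tet2, a methylcytosine dioxygenase gene, had 7.26 RPKM of RelB and 0.977 of RelA at 1 h, RelA being 7.43-fold lower (3.25 to 20.9), and its input was 1.74. The region 179710 bp downstream of the TSS of Ss18, a subunit gene of the BAF chromatin remodeling complex, had 1.40 RPKM of RelB and 16.8 of RelA, a ratio of 12.0 (6.84 to 22.7), and RelA stayed at 10.1 in RelBko. The 2 sites show the RelB side and the RelA side of the same comparison.

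Gene desert regions were unevenly spread along the chromosomes. Chromosome 13 had 621 (12.8% of its regions), chromosome 10 had 575 (11.3%) and chromosome 4 had 499 (9.05%), against 7.16% of all regions. By share, chromosome 4 stood below several others, such as chromosome 18 (10.7%) and chromosome 15 (10.3%). The lowest share was 2.67%, on chromosome 7. Counted in fixed 1 Mb windows, 1047 windows held at least 1, with a median of 3, while 68 windows with 20 or more held 2129 regions (31.8% of all gene desert regions). The 10 densest held 541 regions (8.08%).

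The densest stretch, chr15:67000001-68000000, held 63 gene desert regions, 37 assigned to 1700012I11Rik and 26 to Zfat, a zinc finger gene. Summed RPKM was 697 and 765 for RelB in WT at 0 h and 1 h, 665 and 685 for RelA in WT and RelBko, 114 and 84.7 for RelB in RelBko and 59.4 in the input. The stretch at chr10:95000001-96000000 came next with 62, assigned to 4930459C07Rik, to Eea1 of early endosomes, to the antiproliferative gene Btg1 and to Nudt4. Its sums were the highest of the 10, at 1359 and 1238 for RelB in WT and 1009 and 900 for RelA in WT and RelBko. With windows shifted by 0.5 Mb, or started at each region, the densest stretch became one on chromosome 4 near Klf4, with 73 and 76 regions, so which stretch ranks first depended on where the windows start.

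Named immune and myeloid genes lay at several of the other dense stretches. The stretch at chr10:44000001-45000000 held 53, of which 35 were assigned to Prdm1, which encodes the transcriptional repressor Blimp-1, and 18 to Prep. At chr4:55000001-56000000, 42 of 49 were assigned to Klf4, a zinc finger transcription factor of myeloid cells. At chr13:37000001-38000000 the 48 regions were assigned to Rreb1, to Ly86, whose product MD-1 pairs with the receptor CD180, and to F13a1, the factor XIII A chain. At chr13:102000001-103000000, 43 of 48 were assigned to Pik3r1. The remaining 4 stretches were led by Gm17746, B230303A05Rik, Marcks and H2afy3.

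RelB signal exceeded RelA signal by sum in all 10 stretches, with ratios of RelA to RelB in WT at 1 h from 0.631 (B230303A05Rik) to 0.869 (1700012I11Rik). The same ratio over all gene desert regions was 0.775. RelA in RelBko over WT lay between 0.881 (Rreb1) and 1.05 (Klf4), and over all gene desert regions it was 0.955. RelB at 1 h over 0 h in WT ran from 0.911 (4930459C07Rik) to 1.26 (H2afy3), and RelB in WT over RelBko at 1 h from 7.90 (Klf4) to 13.9 (Marcks). On the deposited scale RelB was higher at 1 h in 7 stretches and lower in 3. With the median over all regions set to 0, a scaling applied to the stretches after seeing the data, it was higher in 2 and lower in 8, so the LPS direction of a stretch depended on the scaling. RelA stayed under RelB in all 10 with the same kind of scaling, at ratios up to 0.968.

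**Figure D4:**
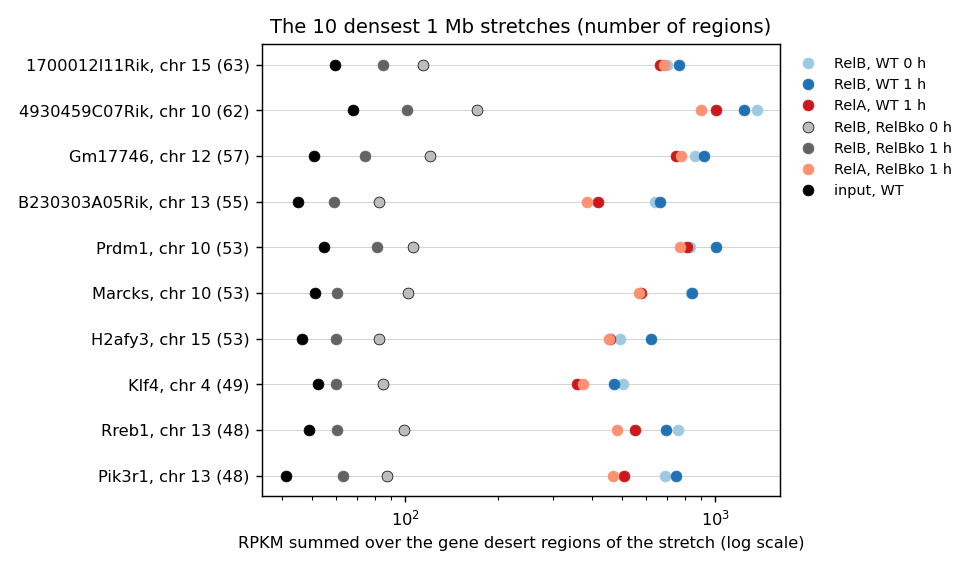
Summed RPKM (x axis, log scale) of the gene desert regions in each of the 10 densest 1 Mb stretches (y axis, by leading gene, chromosome and number of regions); each dot is 1 library. WT RelB at 1 h is above WT RelA in all 10 stretches, and the RelBko RelB libraries lie between the input and the other ChIP libraries.

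The Marcks stretch shows how signal was spread inside such a cluster. Its 53 regions covered 752 kb, and 11 of them had a mean of 20 RPKM or more over the WT ChIP libraries. The strongest, described above, stood at 168 RPKM of RelB at 1 h, and the next, 473 kb away, at 87.3 RPKM, where RelA was 36.3 RPKM in WT and 31.6 in RelBko. A neighbouring region had 34.3 RPKM of RelB at 0 h and 67.2 at 1 h, while the strongest itself had 162 and 168. Neighbours therefore differed in their change with LPS and in their share of RelA.

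**Figure D5:**
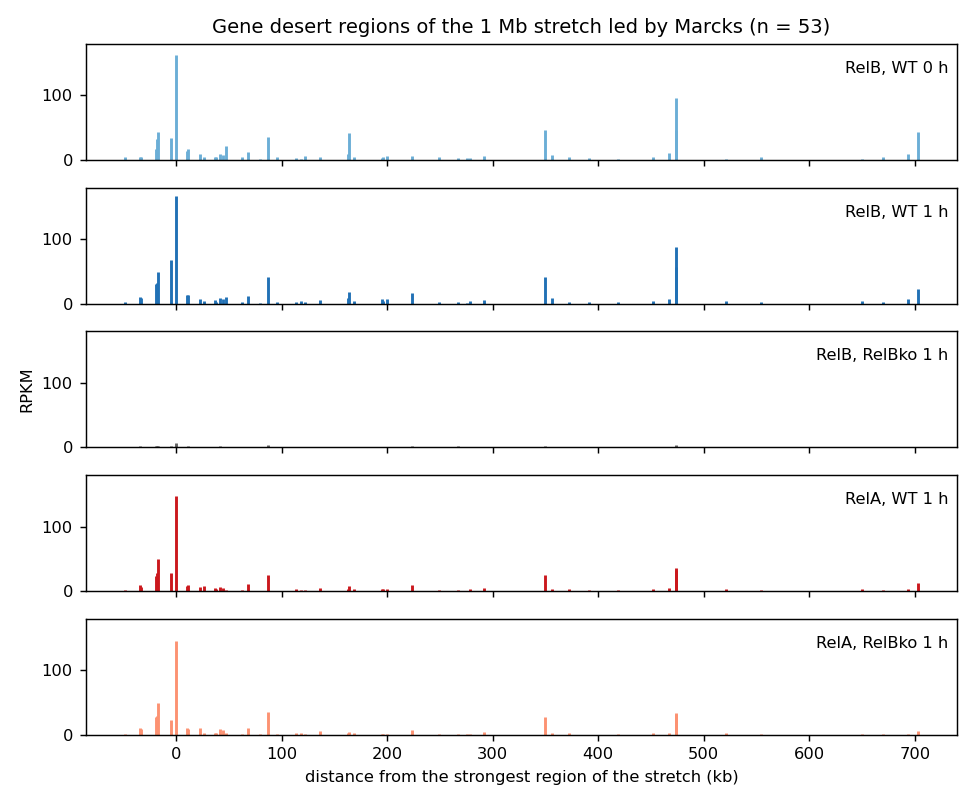
RPKM (y axis) of the 53 gene desert regions in the stretch led by Marcks, by distance in kb from its strongest region (x axis). Panels are WT RelB at 0 h and 1 h, RelBko RelB at 1 h, and RelA in WT and in RelBko. RelBko RelB at 0 h and the input are not drawn. The strongest region reaches 168 RPKM for WT RelB at 1 h and 7.01 in RelBko RelB, and a region 473 kb away has 87.3 RPKM of RelB and 36.3 of RelA in WT.

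When regions at most 12.5 kb apart were joined, 6698 regions formed 3274 groups, of which 1873 were single regions. Regions in larger groups were stronger. For WT RelB at 1 h the median was 2.88 RPKM for single regions, 4.38 in groups of 2 to 3, 6.56 in groups of 4 to 9 and 8.54 in groups of 10 or more. RelA in RelBko followed with 2.01, 3.18, 5.26 and 8.06 RPKM, and the input went from 0.648 to 0.992. The largest group had 31 regions over 151 kb beside Prdm1 (chr10:44284853-44436204), with summed RPKM of 512 and 662 for RelB in WT at 0 h and 1 h, 541 for RelA in WT and 546 in RelBko. The group beside Nr4a3, an orphan nuclear receptor gene induced early by many signals, had 21 regions, with 423, 478, 335 and 347 RPKM in the same order.

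The 6698 regions were assigned to 1455 nearest genes, and 40 genes with 20 or more regions took 1151 of them. Klf4 had the most with 60, all upstream of its TSS at 119 to 602 kb. Of the 6693 assignments whose symbol was found in a RefSeq gene table, 70.4% were to protein-coding genes, 21.6% to lncRNA genes and 5.09% to miRNA genes. Those shares were 86.3%, 9.75% and 2.87% for all other regions.

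The gene lists gave a view of which kinds of genes lay nearest. Myeloid and dendritic cell transcription factors had 236 gene desert regions at 21 of 48 genes, 22.8% of the 1037 regions of these genes, against 7.16% of all regions. Klf4 had 60 of the 236, Prdm1 35, Maf 26 and Klf6 24, so the share describes a few loci more than the list. RelB at 1 h was enriched at 191 (80.9%), against 76.9% of all gene desert regions and 81.7 percent of all regions. RelA in WT was enriched at 198 (83.9%), against 72.1% and 82.0 percent. Of 210 compared for LPS, 24 (11.4%) were higher at 1 h and 4 (1.90%) lower, against 10.7% and 2.39% of gene desert regions (median log2 0.08, against 0.07 over all gene desert regions). Its strongest region was 248074 bp downstream of the TSS of Klf6, a zinc finger factor of myeloid cells, with 60.6 and 80.3 RPKM of RelB in WT at 0 h and 1 h and with RelA at 59.6 in WT and 57.3 in RelBko. RelB there was 1.32 times higher at 1 h (1.20 to 1.46). Beside Prdm1, a region 206885 bp upstream had 47.4 and 74.9 RPKM of RelB, a ratio of 1.58 (1.42 to 1.76).

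Immediate early and AP-1 factor genes had 51 regions at 4 of 27 genes, with 23 at Nr4a3 and 18 at Jun. That was 15.2% of the 335 regions of these genes, against 7.16% of all regions. Of the 51, 47 (92.2%) were enriched for RelB at 1 h, as were 47 for RelA in WT. The shares were 76.9% and 72.1% of all gene desert regions, and 81.7 and 82.0 percent of all regions. Jun, a subunit of AP-1, had its strongest region 157269 bp upstream, with RelB at 97.4 and 98.9 RPKM in WT and RelA at 67.7 in WT and 62.7 in RelBko. Another, 251274 bp upstream, had RelB at 58.8 RPKM at 0 h and 99.2 at 1 h, a ratio of 1.69 (1.53 to 1.86). The former was level with LPS and the latter was higher.

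Cytokine and chemokine genes had 17 gene desert regions at 3 of 44 genes, with 11 at Il12b, 5 at Il6 and 1 at Il15. That was 4.96% of the 343 regions of these genes, against 7.16% of all regions. Of 16 compared for LPS, 2 (12.5%) were higher at 1 h and 1 (6.25%) lower, against 10.7% and 2.39% of gene desert regions. The region 132817 bp upstream of Il6 (chr5:30206645-30207030), the gene of a main inflammatory cytokine, had RelB at 5.25 RPKM in WT at 0 h and 33.5 at 1 h, a ratio of 6.39 (4.95 to 8.36). RelA there was 33.1 RPKM in WT and 50.2 in RelBko, a ratio of 1.51 (1.29 to 1.78), while RelB in RelBko was 0.741 and 2.39 and the input 1.18. The region 117933 bp upstream of Il6 had no such gain, with RelB at 29.0 RPKM at 0 h and 23.9 at 1 h.

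NF-kB pathway and feedback genes had 5 gene desert regions, 1.72% of the 290 regions of these genes, against 7.16% of all regions. All lay downstream of the TSS of Nfkbiz, which encodes the nuclear inhibitor protein I kappa B zeta. The strongest, at 123489 bp, had RelB at 60.3 and 54.5 RPKM in WT and RelA at 50.7 in WT and 54.2 in RelBko. The one at 130882 bp had a higher RelA than RelB signal, 31.0 against 14.0 RPKM at 1 h in WT, a ratio of 2.21 (1.78 to 2.75). RelA there was 33.7 RPKM in RelBko. Dendritic cell maturation and migration genes had 49 (13.7% of their 358 regions) at 3 of 30 genes, 41 of them at Marcks.

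Gene lists of development and of the nervous system also had gene desert regions. Developmental transcription factors had 63 at 11 of 91 genes (18.4% of their 342 regions, against 7.16% of all regions), with 22 at Sall3 and 15 at Tshz1. Of 51 compared, 10 (19.6%) were higher with LPS, against 10.7% of gene desert regions, and 0 lower, against 2.39%. These 10 lay at Sall3 (4 of 18 compared), Tshz1 (4 of 11) and Meis1 (2 of 7), so they describe a few loci more than the list. The median log2 change of the list was 0.25, against 0.07 over all gene desert regions. With the median over all regions set to 0, 9 were higher and 1 lower and the median was 0.11. Neuronal adhesion and guidance genes had 50 (18.0% of their 278 regions) at 16 of 76 genes. In this list RelA was 2-fold or more under RelB at 9 of 41 compared (22.0%), against 11.6% over all gene desert regions. The strongest of the latter list, 219804 bp upstream of the cadherin gene Cdh6, had RelB at 41.8 and 47.7 RPKM and RelA at 30.5, with RelA 0.639 times RelB (0.536 to 0.758). The next, 276210 bp upstream of Pcdh18, a protocadherin gene, had RelB at 42.6 and 27.3 RPKM and RelA at 10.9, with RelA 0.399 times RelB (0.300 to 0.525). Nuclear receptor genes had 18 (4.81% of their 374 regions). They were led by a region 251250 bp upstream of the thyroid hormone receptor gene Thrb with RelB at 57.8 and 47.1 RPKM and RelA at 23.8.

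Marker lists of other blood cells were read in the same way, against 7.16% of all regions in gene deserts. Neutrophil and monocyte markers and housekeeping genes had 0 gene desert regions. B cell markers had 5 (11.9% of their regions), all at Rag2. T and NK cell markers had 6 (5.56%), all at Gata3, and erythroid and mast cell markers had 13 (25.5%), all at Kit, the receptor of stem cell factor. Of the Kit regions, the one at 101568 bp had RelB at 34.1 and 27.9 RPKM in WT, and its neighbour at 102519 bp had 7.17 and 20.1, a ratio of 2.81 (2.18 to 3.64). RelA at that neighbour was 11.1 RPKM in WT and 5.83 in RelBko, a ratio of 0.524 (0.357 to 0.765). ChIP signal beside a gene is not its expression, and which cells of the culture carried the signal was not measured.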

How the data were processed

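ChIP-seq of RelB and RelA and 1 input library were read from BMDCs, per the labels. The deposited table holds RPKM values of 7 libraries over the same 93611 regions, calculated by the authors per the file headers. HISAT2, HOMER and bedtools, and the build mm9, are listed in the submitters' processing notes, while the way regions were selected is not given in the sources used here. Only a RelA antibody is named in the extract protocol, while the sample characteristics give a RelB antibody for the RelB libraries. RPKM times region length was a whole multiple of 1 read in each library (100% of values within 0.01 read), which gave the reads; a read added to every value is possible, so reads may be 1 too high. Coordinates are in mm9, counted from 1. No region sequence is printed, since no mm9 genome was used here.

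Differences are log2 ratios with 0.5 RPKM added, and 2-fold or more is counted over regions enriched (2 RPKM and 2-fold over input) in at least 1 of both libraries, in 6 comparisons. They share libraries, so each is given by itself. Counts over all regions give the background. Regions were named by fixed rules: the 8 strongest, the 5 highest in input, the 4 largest differences per direction with at least 20 reads, the 10 densest windows with their strongest region, the 2 strongest per gene list, the 3 farthest and those at the threshold. The text gives those that carry a comparison. The members, the 13 gene lists (458 distinct genes) and the tests were chosen with earlier results of these data known. Scripts were tested on simulated data and used Python 3.11.15, numpy 2.4.6, pandas 2.3.3, scipy 1.17.1 and matplotlib 3.10.9.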

Additional observations from a re-analysis of the deposited data

Results flagged for a closer look

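The median change of RelB signal after LPS had opposite signs in the 2 genotypes. The median log2 change of gene desert regions was 0.0721 in WT cells and -0.856 in RelBko cells. The difference was not tested, since each genotype held 1 library per time, and with the median over all regions set to 0 the signs flip to -0.07 in WT and 0.07 in RelBko. The RelBko regions compared had a median of 3.47 RPKM at 0 h, against 5.09 RPKM for the WT regions, and 737 of 1048 passed the enrichment rule through the 0 h library alone. Without that rule the median was 0.08 in WT and -0.28 in RelBko.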

How the results depend on the processing

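No paired analysis was possible because each group held 1 library, and for the same reason no replicate could be left out. With the median ratio over all regions set to 1, the medians reversed to -0.129 (RelB, WT over RelBko at 1 h), -0.0687 (RelB with LPS in WT) and 0.0739 (RelB with LPS in RelBko), and scaling on regions without enrichment reversed LPS in WT to -0.0170. With the median set to 1, higher and lower counts became 918 and 877 (RelB genotype, 1 h), 875 and 328 (0 h), 98 and 29 (LPS in RelBko), with 270 lower for LPS in WT and 433 lower for RelA against RelB. Scaling on regions without enrichment gave 2884 higher for the genotype at 0 h and 219 lower for LPS in WT. Without the filter on low values there were 45 and 79 lower for the genotype at 1 h and 0 h, and 162 higher and 834 lower for LPS in RelBko. With 1 RPKM added, the counts were 79 lower for LPS in WT, 261 lower for LPS in RelBko, and 46 higher and 203 lower for RelA in RelBko over WT. At 4 RPKM and 4-fold over input, 2828, 3035, 2628, 156, 13 and 2398 regions were enriched, in the order RelB at 0 h, RelB at 1 h and RelA in WT, then the same in RelBko. The cause was not tested. The other 76 values of the main results stayed within 1.5 times, 1 read taken off every value and the region of high input left out among them. Few reads per region limit the RelBko RelB and input libraries.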
